A study of Mus musculus with 23 samples.

Results

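*Longissimus dorsi* (LD), a muscle that runs along the back, and tongue (TN), a muscular organ of the head, were compared in mice that stayed on the ground. The comparison took every array of ground mice, 10 of LD and 5 of tongue, of 23 arrays in all, and left out the 8 arrays of mice that had flown in space. Over 22626 probe sets, 3107 (13.7%) differed between LD and tongue at an adjusted p below 0.05 (limma, Benjamini-Hochberg over all probe sets) and by more than 2-fold, and were called. Of these, 1244 (5.5% of all probe sets) were higher in LD and 1863 (8.23%) were lower in LD. Genes of slow fibres and of fast oxidative fibres, of fat cells and of the trunk (*Myl2*, *Myh2*, *Adipoq*, *Zic1*) led the increases. Genes of the squamous epithelium that covers the tongue (*Rptn*, *Krt13*, *Dsp*, *Lor*) led the decreases.

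The mice were male C57BL/N6 animals of 19 to 20 weeks with no other genetic change stated, housed for 30 days in one of 3 settings. BG mice lived on the ground in a copy of the habitat of the satellite and gave 5 LD and 3 tongue arrays, and FC mice lived in an ordinary animal facility and gave 5 LD and 2 tongue arrays. BF mice flew on the Bion M1 biosatellite and gave 5 LD and 3 tongue arrays, which serve here only to repeat the comparison in other mice. Each array holds RNA of a whole piece of tissue, and it is not stated whether LD and tongue of the same number came from the same mouse. The values are log2 levels of Affymetrix probe sets, running between 2.24 and 14.5, so a difference of 1 is a doubling. No call of presence is given with them, so a probe set at the low end has no measured floor. Differences at the low end and near the top of the scale may be compressed. In tissue pieces, fewer cells of a type and less RNA per cell cannot be told apart.

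Skeletal muscle fibres are named by their myosin heavy chain. *Myh7* marks slow type I fibres, *Myh2* fast oxidative 2A fibres, *Myh1* 2X fibres and *Myh4* fast glycolytic 2B fibres. Slow and fast fibres also differ in their troponins, tropomyosins, myosin light chains and calcium pumps. Trunk muscles develop from somites along the body axis, where Hox genes record position from neck to tail. The tongue forms in the floor of the mouth under head patterning factors, and its upper surface is a cornified epithelium with papillae that make keratins of skin and of hair.

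Some arrays stood apart from others of their group. Among tongue arrays, BG TN1 and BG TN3 held transcripts that were high in LD at clearly higher levels than BG TN2, FC TN1 and FC TN2. For the 50 probe sets with the largest LD excess in FC arrays alone, BG TN1 exceeded the FC tongue mean by a median of 3.48% of the gap between FC LD and FC tongue on the linear scale, BG TN3 by 4.8% and BG TN2 by -0.158%. In BF mice the same measure was 2.9% in BF TN1, 3.7% in BF TN2 and 0.152% in BF TN3. The part of this in the results was not tested. Differences without BG TN1 and BG TN3 are given beside some of the named genes that they moved, and genes without such a value may have moved too. Without both arrays 3236 probe sets were called, 1333 higher and 1903 lower in LD, and 2987 of them were among the 3107. Among LD arrays, FC LD2 was low in slow fibre genes and in several fat genes and BG LD5 lay farthest from its group (SD of its deviations 0.356, against 0.159 to 0.254 for the other ground LD arrays).

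The decreases reached further than the increases. More than 16-fold separated the muscles in 22 probe sets that were higher in LD and in 237 that were lower. The median difference, LD minus tongue, was 0.16 over all probe sets, 1.32 over those called higher and -1.73 over those called lower. LD and tongue arrays did not overlap in 28.4% of all probe sets and in 93.3% of those called. At the adjusted p alone, 62.3% of probe sets passed, 9060 with a positive and 5039 with a negative difference. Among the brighter probe sets, those at or above the median of the mean level over the 15 ground arrays, 1089 were called higher and 1091 lower. With 10 of these arrays from LD, this cut favours probe sets that were high in LD. The 3107 called probe sets name 903 genes that were higher and 1336 that were lower in LD. Below, a gene is given by its brightest probe set by the same mean, which also gives LD more weight than tongue. Counts of called members of a list stand beside the 13.7% called over all probe sets, 5.5% higher and 8.23% lower in LD. Tongue values stand in the order BG TN1, BG TN2, BG TN3, FC TN1, FC TN2. Dimmer probe sets of a gene could differ from it, as for *Dlx3* (-0.06), *Kit* (-0.04), *Erbb3* (0.22) and *Top2a* (0.42), none of them called.

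**Figure D1:**
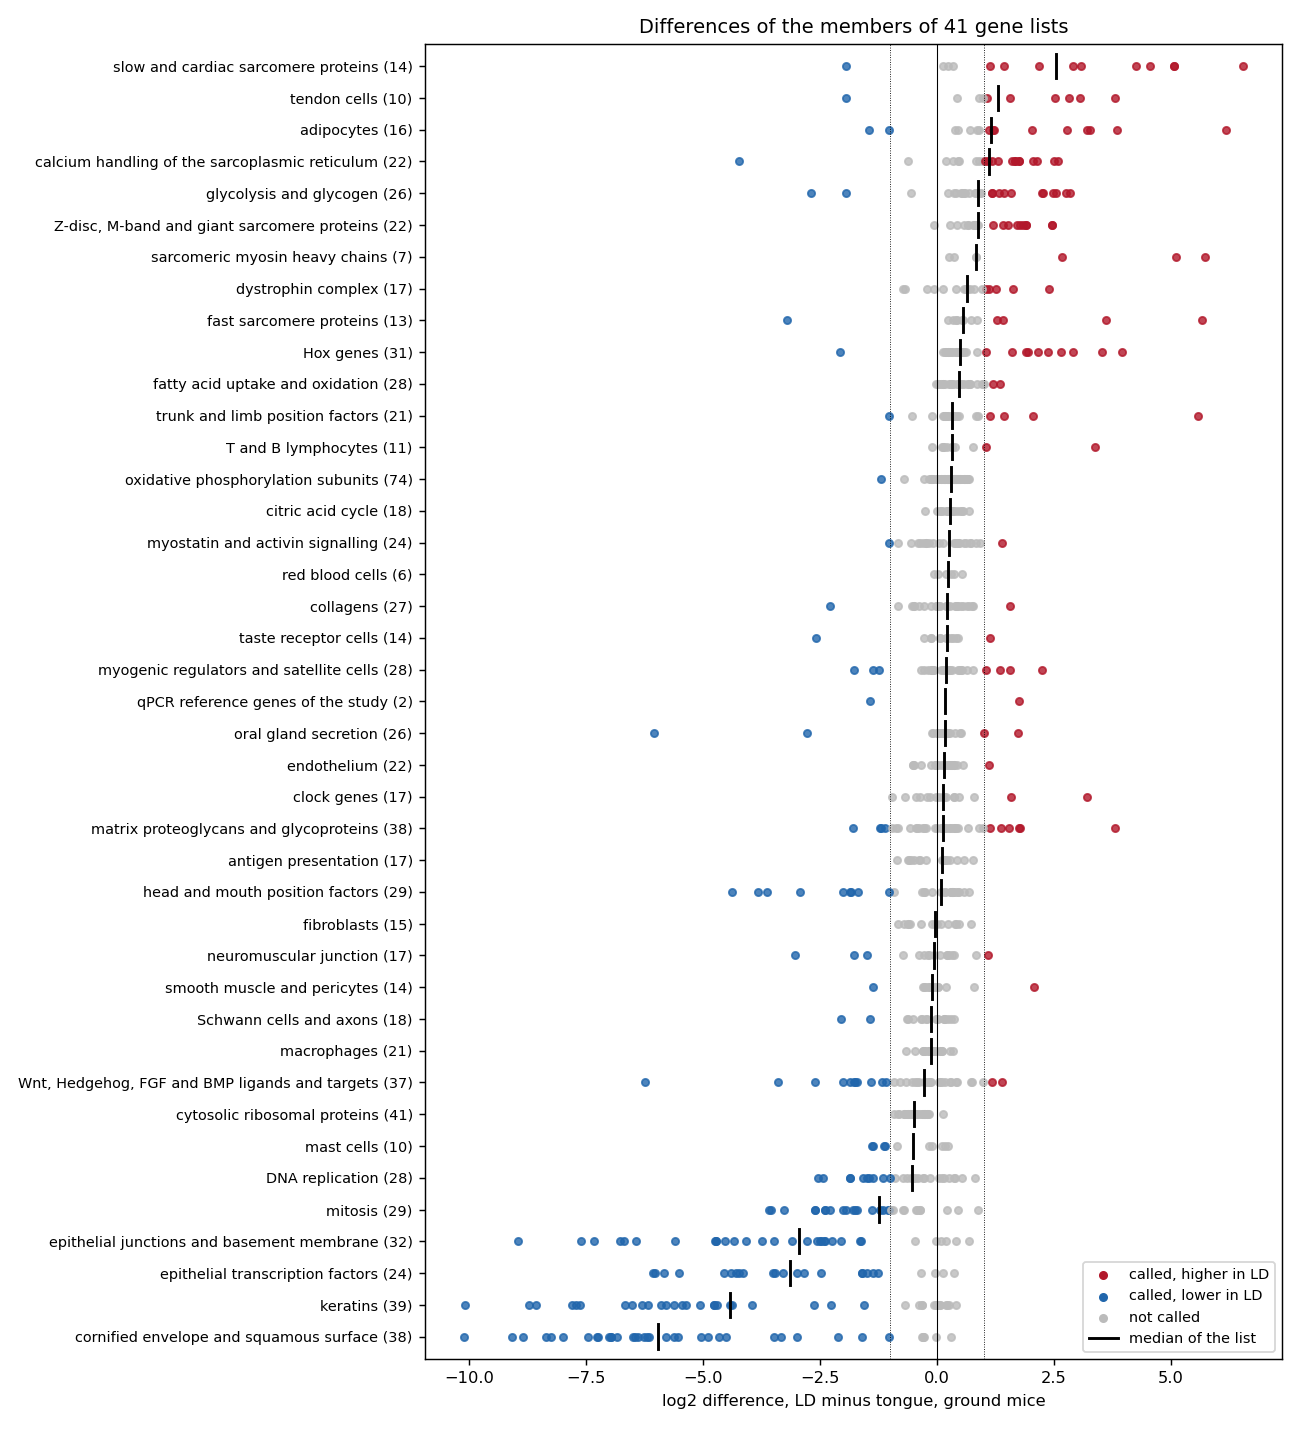
Log2 difference, LD minus tongue in ground mice, of each measured member of 41 gene lists (1 point per gene, brightest probe set; the number of members is in brackets), with a black bar at the median of the list. Red points were called higher in LD, blue points lower, grey points not called; lists run from slow and cardiac sarcomere proteins at the top (median 2.55) to the cornified envelope at the bottom (median -5.97), and dotted lines mark 2-fold.

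The myosins of the fastest fibres lay near the top of the scale in both muscles and were not called at their brightest probe sets. *Myh4* lay between 13.9 and 14.2 in LD, with a median of 14.1, and at 13.6, 13.5, 13.7, 14.0 and 14.0 in tongue, a difference of 0.26 ± 0.078 (SE). *Myh1* lay between 13.4 and 13.9 in LD (median 13.7) and at 13.2, 13.2, 13, 13.6 and 13.5 in tongue, a difference of 0.36 ± 0.085. Both genes overlapped between the muscles. A dimmer probe set of *Myh1*, at 6.72 in LD and 5.67 in tongue, was higher in LD by 1.05, so the values near the top do not show that the levels were alike.

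*Myh2*, the 2A myosin, separated them. It lay between 13.1 and 13.8 in LD, with a median of 13.5, and at 8.89, 6.39, 10.1, 6.99 and 6.58 in tongue. All 10 LD arrays were above all 5 tongue arrays, and the tongue arrays spread over several doublings, with BG TN1 and BG TN3 highest. The difference was 5.73 ± 0.43 (53.2-fold, adjusted p = 3.39e-09), and 6.88 without those 2 arrays. *Myh7*, the slow myosin, lay between 9.07 and 13.1 in LD (median 11.7) and at 7.15, 4.82, 8.17, 6.05 and 5.72 in tongue (difference 5.11 ± 0.56, adjusted p = 4.38e-07, and 5.96 without BG TN1 and BG TN3). It varied more among LD arrays than *Myh2* did (SD 1.12 against 0.221). *Myh3*, the embryonic myosin, was also higher in LD (2.68 ± 0.27), with BG LD5 at 8.89 above all others. In all, 3 of 7 measured heavy chain genes were called higher and 0 lower, and *Myh8* (0.83) and *Myh6* (0.84) passed the adjusted p but not 2-fold.

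Most sarcomere transcripts of slow fibres were higher in LD. Of 14 slow and cardiac sarcomere genes, 10 were higher in LD and 1 was lower, with a median difference of 2.55 beside 0.16 over all probe sets. *Myl2*, the slow regulatory light chain, ranked first among the increases. It lay between 10.6 and 13.5 in LD, with a median of 13, and at 9.12, 3.95, 10.2, 5.39 and 3.94 in tongue (6.55 ± 0.75, adjusted p = 7.83e-07, 5.75 without BG TN2, 7.31 without BG TN3 and 8.40 without BG TN1 and BG TN3). The slow troponins followed, with the difference without BG TN1 and BG TN3 in brackets. *Tnnc1*, the calcium-binding subunit, was higher by 5.07 ± 0.49 (5.81). *Tnnt1*, the tropomyosin-binding subunit, was higher by 4.54 ± 0.49 (5.08) and *Tnni1*, the inhibitory subunit, by 4.24 ± 0.42 (4.65). FC LD2 was the lowest LD array for all 3, at 9.21 for *Tnnc1*, 8.65 for *Tnnt1* and 7.94 for *Tnni1*, so that *Tnnc1* and *Tnni1* overlapped with tongue arrays. The other 9 LD arrays held *Tnnc1* at 11.7 or more.

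*Tpm3*, the slow tropomyosin, was higher in LD by 5.07 ± 0.49 at its brightest probe set (5.92 without BG TN1 and BG TN3) and by 5.82 at another. Of its 3 further probe sets, 2 were lower in LD, by 1.52 and 1.12 on the log2 scale, and 1 differed by -0.49, so the probe sets of this gene, which has muscle and non-muscle transcripts, did not move together. *Myl3*, the slow essential light chain, was higher by 3.07 ± 0.18, and by 5.78 and 4.74 at its other probe sets. *Ankrd2*, a stretch-responsive protein of slow fibres, was higher by 2.92 ± 0.18 and *Myoz2*, which anchors calcineurin at the Z-disc, by 2.18 ± 0.18. *Csrp3*, a LIM protein of the Z-disc, was higher by 1.13 ± 0.31, and was not called at 0.86 with an adjusted p of 0.0631 without BG TN1 and BG TN3 and at 0.992 without BG TN1 alone. *Actc1*, cardiac actin, ran the other way. It lay between 7.87 and 11.1 in LD (median 9.91) and at 11.5, 11.1, 11.6, 11.9 and 11.9 in tongue (-1.94 ± 0.42, adjusted p = 0.000668).

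Of 13 fast sarcomere genes, 4 were higher in LD and 1 was lower. *Actn3*, the alpha-actinin of fast fibres, lay between 13.5 and 13.9 in LD (median 13.8) and at 9.69, 6.53, 10.8, 6.88 and 6.83 in tongue. No tongue array came within the LD range, and the difference was 5.67 ± 0.51 (adjusted p = 3.37e-08), 6.29 without BG TN3 and 7.06 without BG TN1 and BG TN3. *Actn2*, its relative in all fibres, differed by 0.66 ± 0.16 and was not called. *Mylk2*, the kinase of skeletal myosin light chains, lay between 10.4 and 12.1 in LD (median 11.2) and at 7.64, 6.94, 7.73, 7.60 and 7.51 in tongue (3.62 ± 0.18). *Myoz1* (1.40 ± 0.076, and 2.65 at a dimmer probe set) and *Myom2* (1.27 ± 0.11), a Z-disc and an M-band protein of fast fibres, were higher in LD as well.

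The fast troponins *Tnni2* (0.55), *Tnnt3* (0.73) and *Tnnc2* (0.35), the light chains *Myl1* (0.23) and *Mylpf* (0.40) and skeletal actin *Acta1* (0.43) had positive differences under 2-fold. All lay at 13.8 or more in LD, near the highest value of 14.5. Apart from *Myl1*, they did not overlap between the muscles, and a dimmer probe set of *Tnni2* was higher in LD by 1.66. *Mybph*, a relative of myosin-binding protein C, was the one fast gene lower in LD, between 5.40 and 7.87 there (median 6.25) and at 9.36, 9.45, 9.69, 9.83 and 9.79 in tongue (-3.20 ± 0.31, adjusted p = 1.07e-07).

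**Figure D2:**
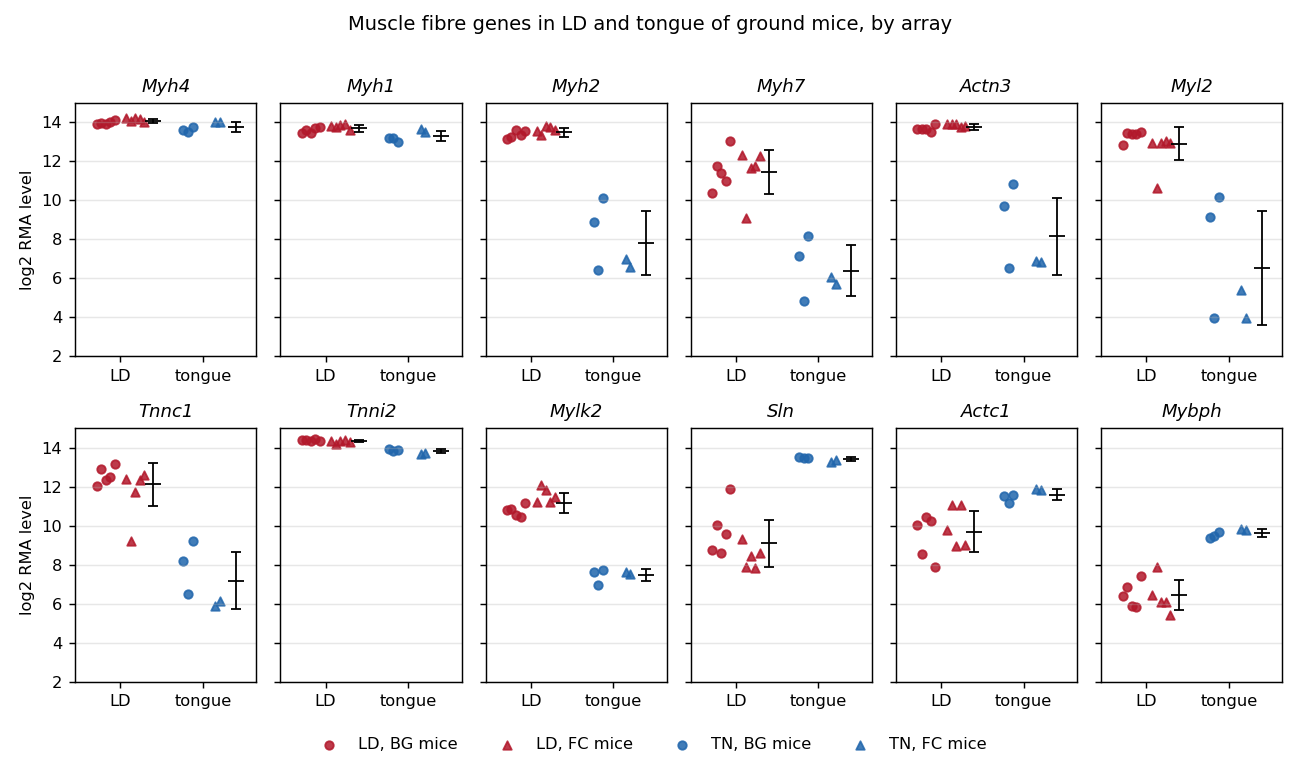
Log2 RMA level of 12 muscle fibre genes by array in LD (red) and tongue (blue) of ground mice; circles are BG and triangles FC mice, and black bars are the mean ± SD over 10 LD or 5 tongue arrays. *Myh4* and *Myh1* lie near the top of the scale in both muscles, *Myh2*, *Myh7*, *Actn3*, *Myl2* and *Tnnc1* are higher in LD with 2 raised BG tongue arrays, and *Sln*, *Actc1* and *Mybph* are lower in LD.

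Calcium handling genes were mostly higher in LD, and the Z-disc and dystrophin complex genes that were called were all higher. Of 22 Z-disc, M-band and giant sarcomere genes, 10 were higher and 0 lower. *Pdlim7* (2.46 ± 0.10), a Z-disc scaffold, and *Capn3* (2.45 ± 0.12), a protease held on titin, came first, while titin itself, *Ttn*, differed by 0.43 ± 0.080. Of 22 genes of calcium handling, 13 were higher and 1 lower, with a median of 1.12. *Pvalb*, the calcium buffer of fast fibres, lay between 13.9 and 14.3 in LD (median 14.3) and at 12.4, 10.9, 12.9, 11 and 11 in tongue (2.59 ± 0.25, and 3.23 without BG TN1 and BG TN3). *Casq1*, the calcium store protein of the reticulum, was higher by 2.49 ± 0.13.

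The subunits of the voltage sensor *Cacnb1* (2.15 ± 0.083) and *Cacna1s* (1.76 ± 0.087) and the release channel *Ryr1* (1.30 ± 0.11) were also higher in LD. *Atp2a1*, the fast calcium pump, differed by 0.44 ± 0.077 and was not called. *Atp2a2*, the slow pump, was higher by 1.67 ± 0.31 at its brightest probe set and by 2.09 at another, but 1 was lower in LD by 1.32 on the log2 scale and 1 differed by -0.20. *Sln* encodes sarcolipin, a small inhibitor of these pumps, and was the one calcium gene lower in LD. It lay between 7.84 and 11.9 in LD, with a median of 8.69, and at 13.5, 13.5, 13.5, 13.3 and 13.4 in tongue (-4.23 ± 0.41, adjusted p = 9.5e-08). LD arrays spread widely for this gene and tongue arrays hardly at all, and none overlapped.

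Of 17 genes of the dystrophin complex, 5 were higher in LD and 0 lower (29.4% called, beside 13.7% of all probe sets). *Aqp4*, the water channel of fast fibres, was higher by 2.39 ± 0.14, *Sgca*, alpha-sarcoglycan, by 1.62 ± 0.072 and *Dmd*, dystrophin, by 1.11 ± 0.11.

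Genes of glycogen use were among those higher in LD. Of 26 genes of glycolysis and glycogen, 11 were higher in LD and 2 were lower, with a median of 0.884. *Ppp1r3c*, which targets a phosphatase to glycogen, lay between 13.1 and 13.6 in LD (median 13.4) and at 11.6, 10.7, 11.3, 9.68 and 9.70 in tongue (2.84 ± 0.21, and 3.31 without BG TN1 and BG TN3). Its 3 BG tongue arrays were above both FC tongue arrays. *Pgm1* (2.75 ± 0.20), which links glycogen to glycolysis, *Gpd1* (2.55 ± 0.17), *Pygm*, muscle glycogen phosphorylase (1.57 ± 0.079), and the phosphorylase kinase subunits *Phka1* (2.47 ± 0.14) and *Phkg1* (2.26 ± 0.17) were higher in LD. *Ldha* was higher by 1.18 ± 0.073, and *Pfkm*, phosphofructokinase of muscle, differed by 0.92 ± 0.076, just under 2-fold.

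*Hk1* and *Pgam1*, isoforms found in many tissues, ran the other way. *Hk1*, the hexokinase of most tissues, lay between 6.58 and 7.60 in LD (median 6.99) and at 9.49, 9.28, 9.62, 10.2 and 9.94 in tongue (-2.68 ± 0.14). *Pgam1*, the non-muscle phosphoglycerate mutase, was lower in LD (-1.94 ± 0.13), while *Pgam2*, the muscle form, was higher (1.17 ± 0.11). In the respiratory chain *Cox6a1*, the non-muscle form of subunit 6a of cytochrome oxidase, was lower in LD (-1.20 ± 0.098) and was the only one of 74 subunits called. *Cox6a2*, the muscle form, differed by 0.58 ± 0.076, and *Cox7a1*, the muscle form of subunit 7a, by -0.28 ± 0.13. The median over the 74 subunits was 0.304 and that over 18 genes of the citric acid cycle, of which 0 were called, was 0.271. Of 28 genes of fatty acid uptake and oxidation, 2 were higher in LD and 0 lower (7.14% called, beside 13.7% of all probe sets).

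*Car3*, a carbonic anhydrase abundant in slow fibres and fat, lay between 13.6 and 14.3 in LD (median 14.1) and at 11.2, 6.66, 12.4, 6.59 and 6.76 in tongue. The difference was 5.36 ± 0.71, with 4.73 without BG TN2, 6.17 without BG TN3 and 7.31 without BG TN1 and BG TN3, the 2 raised tongue arrays. *Padi2*, a peptidylarginine deiminase, was higher by 4.93 ± 0.26 (5.55 without BG TN1 and BG TN3), with LD arrays between 9.61 and 10.8 (median 10.2) and tongue arrays at 5.76, 4.26, 6.33, 5.17 and 4.82.

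Some genes that record position differed between LD and tongue, while most members of these lists were not called. Of 31 Hox genes, 10 were higher in LD and 1 was lower, with a median of 0.494 (35.5% called, beside 13.7% of all probe sets). *Hoxc8*, a gene of the thoracic region, lay between 6.71 and 9.57 in LD, with a median of 8.67, and at 5.05, 4.22, 4.94, 4.02 and 4.36 in tongue (3.96 ± 0.33, adjusted p = 1.48e-08). Every LD array was above every tongue array. *Hoxd8* was higher by 3.53 ± 0.19, *Hoxc4* by 2.90 ± 0.14, *Hoxa4* by 2.65 ± 0.21, *Hoxd9* by 2.38 ± 0.24, *Hoxc6* by 2.17 ± 0.13, *Hoxc5* by 1.94 ± 0.16, *Hoxa5* by 1.90 ± 0.25, *Hoxc9* by 1.6 ± 0.33 and *Hoxb2* by 1.05 ± 0.11. All but *Hoxb2* belong to paralogue groups 4 to 9, and 5 of the 10 lie in the Hoxc cluster on chromosome 15.

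*Hoxa5*, a marker of the lower neck and upper chest, lay between 6.11 and 8.05 in LD (median 7.12) and at 5.18, 5.11, 5.32, 5.22 and 5.29 in tongue, where the 5 arrays hardly varied. *Hoxc13*, which in skin and tongue acts on hair keratin genes, was the only Hox gene lower in LD. It lay between 5.29 and 6.05 in LD (median 5.68) and at 7.63, 7.73, 7.45, 7.88 and 7.92 in tongue (-2.08 ± 0.13, adjusted p = 1.49e-10). The other 20 Hox genes had differences between 0.13 and 0.85, positive in all.

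*Zic1*, a zinc finger factor of the dorsal somite, was the strongest position gene. It lay between 8.62 and 9.89 in LD (median 9.10) and at 4.09, 3.21, 4.31, 3.34 and 3.01 in tongue (5.57 ± 0.23, adjusted p = 7.82e-13, and 6.07 without BG TN1 and BG TN3). *Irx5* (2.05 ± 0.33), *En1* (1.43 ± 0.18) and *Irx3* (1.12 ± 0.14) were the other trunk and limb factors higher in LD, of 21 measured. Of these 21, 16 were not called (23.8% called, beside 13.7% of all probe sets), and the median was 0.331. *Meis1* was lower at -1.03 ± 0.17, and this call was lost when BG LD3 (-0.971), BG LD4 (-0.979), FC LD4 (-0.968) or BG TN1 (-0.961) was left out. *Tbx15*, a factor of trunk and limb muscle, differed by 0.84 ± 0.099 and was not called, while a dimmer probe set was higher in LD by 1.33.

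Of 29 head and mouth factors, 0 were higher in LD and 9 were lower (31% called, beside 13.7% of all probe sets). The other 20 were not called. Of the 29, 15 had a positive difference, and the median was 0.0904. *Isl1*, a LIM factor of the floor of the mouth and of the second heart field, lay between 4.24 and 4.95 in LD (median 4.57) and at 9.17, 8.83, 8.85, 8.86 and 9.17 in tongue (-4.38 ± 0.11, adjusted p = 3.28e-16). *Tbx1*, needed for branchial arch muscle, was lower in LD by 3.82 on the log2 scale (SE 0.24) and *Pitx1*, a factor of mouth and hindlimb, by 3.62 (SE 0.15). These 3 did not overlap between the muscles. *Dlx3* (-2.93 ± 0.10), *Dlx5* (-2.01 ± 0.11), *Lhx8* (-1.86 ± 0.16), *Pax9* (-1.83 ± 0.096), *Msx2* (-1.70 ± 0.12) and *Foxf2* (-1.02 ± 0.12) made up the rest of the 9 that were lower. The call of *Foxf2* was lost without BG TN2 (-0.924) or FC TN2 (-0.921), and that of *Hoxb2* without BG TN2 (0.979). Several of these factors are also known in epithelium, and which cells of the tongue carried them was not measured.

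**Figure D3:**
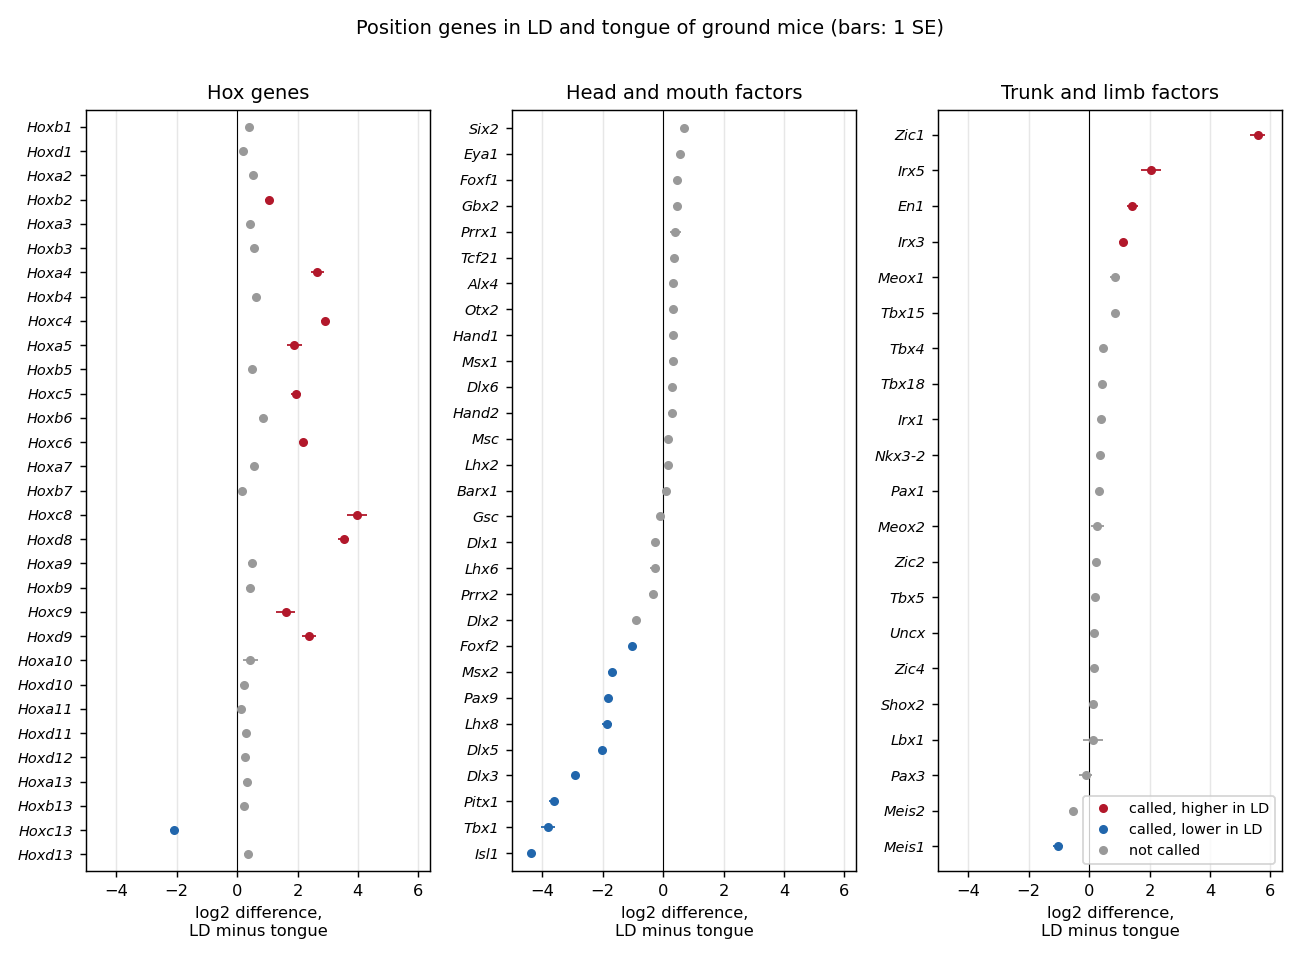
Log2 difference, LD minus tongue in ground mice, with 1 SE, for 31 Hox genes in order of paralogue group (from group 1 at the top to group 13), 29 head and mouth factors and 21 trunk and limb factors. Red genes were called higher in LD, among them Hoxc8 (3.96) and Zic1 (5.57), and blue genes lower, among them Isl1 (-4.38) and Hoxc13 (-2.08).

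Keratins and the cornified envelope had the deepest decreases in LD. Of 39 keratin genes, 0 were higher in LD and 25 were lower, with a median of -4.42. *Krt13*, the type I keratin of the mouth lining, lay between 3.41 and 4.35 in LD (median 3.76) and at 13.8, 13.8, 13.9, 13.8 and 13.9 in tongue (-10.09 ± 0.11, adjusted p = 2.04e-21). Its partner *Krt4* lay between 5.45 and 5.95 in LD (median 5.75) and at 14.2, 14.1, 14.3, 14.3 and 14.4 in tongue (-8.56 ± 0.095). The keratins of the basal layer were lower in LD too: *Krt5* by 5.44 on the log2 scale (SE 0.11), *Krt14* by 6.30 (SE 0.084) and *Krt15* by 5.89 (SE 0.089). For *Krt5* the LD arrays lay between 5.45 and 6.10 (median 5.80) and the tongue arrays at 11.1, 11, 11.2, 11.7 and 11.3. BG TN1 and BG TN3, which stood apart for genes that were high in LD, muscle genes and others, did not do so here. A change of a few percent in level would lie within the spread of these tongue arrays.

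*Krt6b* (-8.71 ± 0.12) and *Krt16* (-7.62 ± 0.10), keratins of papillae and of healing skin, and *Krt36* (-7.80 ± 0.11), *Krt34* (-7.70 ± 0.16) and *Krt84* (-5.63 ± 0.13), hair keratins that the filiform papillae share, were lower in LD. *Krt10*, of cornifying layers, was lower by 5.78 on the log2 scale (SE 0.11). *Krt1*, its partner in skin, lay between 4.56 and 5.08 in LD (median 4.88) and at 9.65, 6.4, 7.16, 6.69 and 6.02 in tongue, where BG TN1 was highest (-2.27 ± 0.37, and -1.5 without BG TN1 and BG TN3). *Krt8*, a keratin of simple epithelia, lay between 5.14 and 5.94 in LD (median 5.57) and at 5.44, 5.56, 5.60, 5.52 and 5.52 in tongue and was not called (0.06 ± 0.094).

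Of 38 genes of the cornified envelope and squamous surface, 0 were higher in LD and 32 were lower, with a median of -5.97. *Rptn*, repetin, a matrix protein of the envelope, differed as much as *Krt13*, within the SE. It lay between 2.66 and 3.54 in LD (median 2.99) and at 13, 13, 13, 13.3 and 13.3 in tongue (-10.10 ± 0.11, adjusted p = 2.04e-21), while its 2 other probe sets differed by 0.10 and -0.05. LD values of both genes are at the low end of the scale, which starts at 2.24, so the size of these differences is not exact, and in BF mice they were -10.05 for *Rptn* and -10.24 for *Krt13*. *Lor*, loricrin, the bulk protein of the envelope, lay between 4.67 and 5.57 in LD (median 5.24) and at 14.0, 14.1, 14.4, 14.4 and 14.4 in tongue (-9.08 ± 0.13). Outside this list, the genes with the deepest decreases included *Ada*, adenosine deaminase (-9.91 ± 0.12), *Lce1d*, a late envelope protein (-9.40 ± 0.097), *Mt4*, the metallothionein of squamous epithelium (-9.37 ± 0.12), *Aldh3a1*, an aldehyde dehydrogenase (-9.13 ± 0.10), and *Calm4*, a calcium sensor of keratinocytes (-9.11 ± 0.15). For none of these did LD and tongue arrays overlap.

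Cell junctions and the factors that control epithelium followed. Of 32 junction and basement membrane genes, 0 were higher in LD and 26 were lower, among them *Dsp*, desmoplakin of desmosomes (-8.95 ± 0.16, and -9.67 at a second probe set), *Perp*, a desmosome protein (-7.60 ± 0.12), and *Cdh1*, E-cadherin (-7.33 ± 0.13). Of 24 epithelial transcription factors, 20 were lower in LD and 0 higher. *Trp63*, the p63 factor of basal layers, lay between 4.71 and 6 in LD (median 5.43) and at 9.92, 9.85, 9.84, 9.65 and 10.1 in tongue (-4.54 ± 0.18, with 2 further probe sets at 0.17 and -0.01). *Ehf* (-6.07 ± 0.10) and *Sox2* (-6.03 ± 0.10), a factor of taste and basal cells, came first among them.

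**Figure D4:**
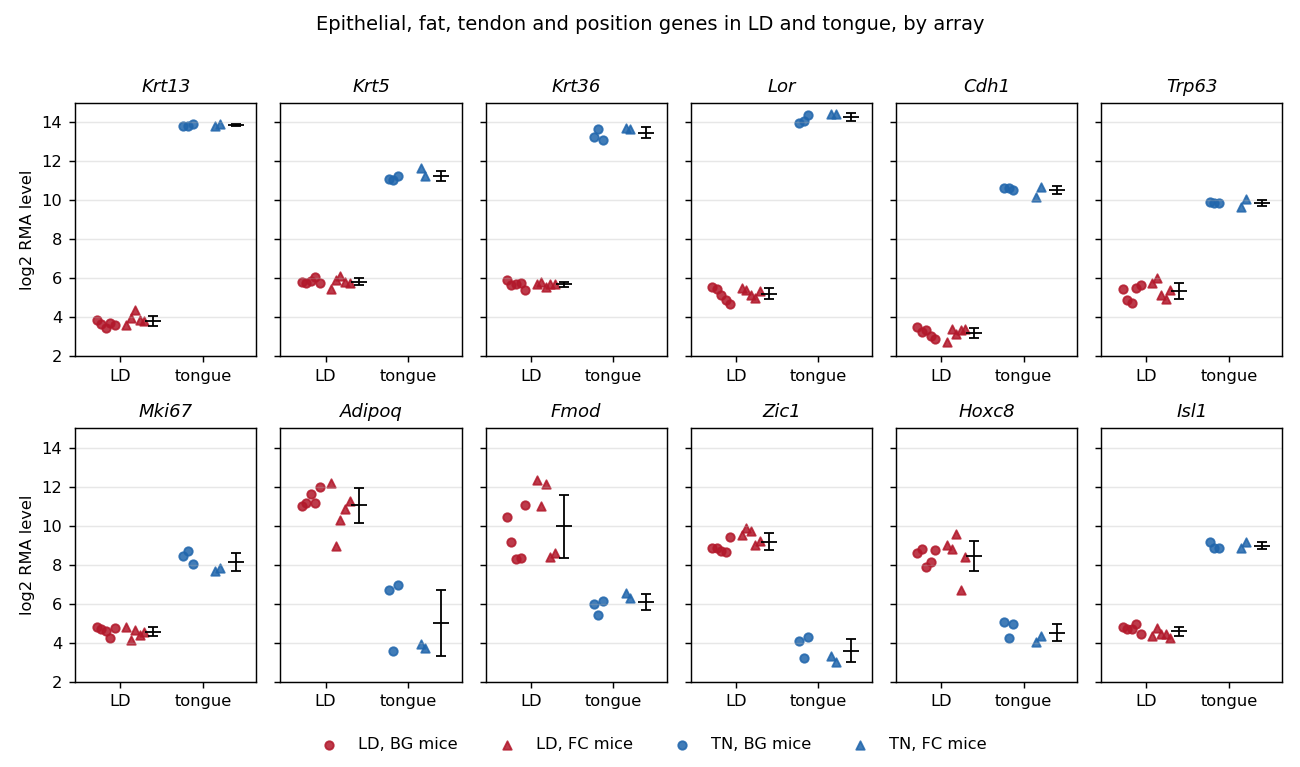
Log2 RMA level of 12 epithelial, dividing-cell, fat, tendon and position genes by array in LD (red) and tongue (blue) of ground mice; circles are BG and triangles FC mice, and black bars are the mean ± SD over 10 LD or 5 tongue arrays. The epithelial genes, Mki67 and Isl1 are lower in LD with no overlap, and Adipoq and Fmod are higher in LD with a wide spread among LD arrays.

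The stretches just before the start sites of genes at both ends of the ranking are shown as examples from epithelial genes that were lower in LD and from slow fibre and trunk genes that were higher. Sequences are from RefSeq on GRCm38.p6 and cover the 200 bases before the start, read 5′ to 3′ along the gene. Capitals mark matches on either strand to the TATA box core TATAAA, the AP-1 site TGAGTCA, the M-CAT element CATTCC and the E-box CAGCTG, the last 2 known from muscle genes. *Lor* and *Rptn* lie on chromosome 3 (chr3:92083143-92083342, minus strand, and chr3:93393499-93393698, plus strand) and *Krt5* on chromosome 15 (chr15:101712906-101713105, minus strand). *Tnnc1* lies on chromosome 14 (chr14:31208112-31208311, plus strand) and *Myl3* and *Zic1* on chromosome 9 (chr9:110763478-110763677, plus strand, and chr9:91365769-91365968, minus strand).
Lor: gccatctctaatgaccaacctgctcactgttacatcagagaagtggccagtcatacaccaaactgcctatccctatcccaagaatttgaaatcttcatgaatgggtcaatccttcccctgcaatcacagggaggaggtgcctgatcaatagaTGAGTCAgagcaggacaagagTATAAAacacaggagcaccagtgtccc
Rptn: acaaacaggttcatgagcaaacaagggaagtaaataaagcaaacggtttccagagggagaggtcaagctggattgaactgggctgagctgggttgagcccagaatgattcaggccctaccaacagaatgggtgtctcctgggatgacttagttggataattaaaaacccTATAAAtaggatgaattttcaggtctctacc
Krt5: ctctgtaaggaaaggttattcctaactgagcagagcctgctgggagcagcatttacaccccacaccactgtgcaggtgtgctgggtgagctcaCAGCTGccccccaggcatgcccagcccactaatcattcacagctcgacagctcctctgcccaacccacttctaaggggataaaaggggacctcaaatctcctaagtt
Tnnc1: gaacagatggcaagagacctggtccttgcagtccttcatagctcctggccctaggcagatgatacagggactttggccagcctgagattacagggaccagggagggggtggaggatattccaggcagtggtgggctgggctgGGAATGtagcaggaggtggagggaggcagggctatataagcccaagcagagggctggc
Myl3: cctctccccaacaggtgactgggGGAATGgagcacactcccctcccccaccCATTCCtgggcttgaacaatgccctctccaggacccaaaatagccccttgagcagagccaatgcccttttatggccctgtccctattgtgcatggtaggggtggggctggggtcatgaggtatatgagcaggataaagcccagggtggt
Zic1: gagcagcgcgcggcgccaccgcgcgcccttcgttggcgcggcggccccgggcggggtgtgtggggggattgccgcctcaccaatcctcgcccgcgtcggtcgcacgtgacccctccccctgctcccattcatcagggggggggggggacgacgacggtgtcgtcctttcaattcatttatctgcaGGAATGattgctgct
*Lor* holds TGAGTCA 48 bases and TATAAA 27 bases before its start, *Rptn* TATAAA 31 bases before and *Krt5* CAGCTG 107 bases before. *Tnnc1* holds CATTCC on the opposite strand 58 bases before its start, and *Myl3* holds it on each strand, 177 and 149 bases before. *Zic1* holds it on the opposite strand 15 bases before its start. These are matches of letters, with no binding measured.

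Over windows of 300 bases around the start, 250 before and 50 after, TGAGTCA was found in 11 of 51 keratin, envelope and junction genes that were lower in LD (21.6%) and in 5.95% of all genes with a promoter sequence. CATTCC was found in 6 of 14 sarcomere genes that were higher in LD (42.9%) and in 16.6% of all genes. The sets held 84 and 19 genes, of which those 51 and 14 had a promoter sequence. A gene entered a set if any of its probe sets was called and all called ones had the same direction. *Myh1* and *Tnni2*, called only at dimmer probe sets, thus counted as higher, and *Tpm3* was left out. TATAAA was found in 39.2% of the first set, in 42.9% of the second and in 15.7% of all genes. CAGCTG was found in 25.5% of the first set, in 28.6% of the second and in 18.3% of all genes. Over all genes called higher in LD and all called lower, leaving out genes with probe sets in both directions, CATTCC was found in 15.9% and 15.6%, and TGAGTCA in 5.31% and 8.71%.

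Many genes of dividing cells were lower in LD. Of 29 mitosis genes, 0 were higher in LD and 18 were lower, with a median of -1.23, and of 28 DNA replication genes 10 were lower and 0 higher. *Mki67*, present in dividing cells, lay between 4.15 and 4.78 in LD (median 4.63) and at 8.45, 8.73, 8.01, 7.65 and 7.84 in tongue (-3.54 ± 0.14). *Cks2*, a partner of cyclin-dependent kinases, lay between 4.85 and 5.45 in LD (median 5.05) and at 9.24, 9.66, 8.56, 8.15 and 8.06 in tongue (-3.59 ± 0.18). The BG tongue arrays were above the FC tongue arrays for both genes. Neither passed limma's interaction test of muscle and housing (adjusted p = 0.558 for *Mki67* and 0.283 for *Cks2*). *Top2a* (-3.27 ± 0.13), *Birc5* (-2.61 ± 0.19) and *Rrm2* (-2.54 ± 0.17) followed. For *Top2a* and *Birc5* the BG and FC tongue arrays overlapped, and for *Rrm2* the FC tongue arrays (7.59 and 7.78) were the highest. Which cells of the tongue divided was not measured. Of 41 genes of cytosolic ribosomal proteins, 0 were called, but only 1 had a positive difference. Their median was -0.495, beside 0.16 over all probe sets. LD and tongue arrays did not overlap in 27 of the 41, beside 28.4% of all probe sets.

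Most fat and tendon genes were higher in LD, with wide spread. Of 16 adipocyte genes, 9 were higher and 2 lower, with a median of 1.15. *Adipoq*, the hormone adiponectin of fat cells, lay between 8.98 and 12.2 in LD, with a median of 11.2, and at 6.71, 3.58, 6.95, 3.93 and 3.74 in tongue (6.18 ± 0.51, adjusted p = 1.09e-08, and 7.22 without BG TN1 and BG TN3). *Cidec*, of fat droplets, was higher by 3.85 ± 0.33, *Scd1*, a fatty acid desaturase, by 3.27 ± 0.31, *Retn*, resistin, by 3.21 ± 0.32 and *Thrsp*, a lipogenic factor, by 2.77 ± 0.21. *Cidea*, known from brown fat and skin glands, was lower in LD (-1.45 ± 0.28). FC LD2 was the lowest ground LD array for *Adipoq* (8.98), *Cidec* (6.26), *Retn* (7.07), *Scd1* (11) and *Thrsp* (8.89). For *Scd1*, BG TN1 lay at 10.3, above the other 4 tongue arrays, which lay between 8.94 and 9.23.

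Of 10 tendon genes, 6 were higher in LD and 1 was lower. *Fmod*, fibromodulin of tendon matrix, lay between 8.27 and 12.4 in LD (median 9.80) and at 6, 5.44, 6.15, 6.55 and 6.28 in tongue (3.80 ± 0.61). *Kera*, keratocan (3.06 ± 0.64), *Tnmd*, tenomodulin (2.83 ± 0.58), and *Chad*, chondroadherin (2.52 ± 0.71), were higher with similar spread, and *Egr1*, an early response factor that also acts in tendon, was lower (-1.93 ± 0.25). Of 11 lymphocyte genes 2 were higher in LD (18.2% called, beside 13.7% of all probe sets). *Ighm*, the heavy chain of immunoglobulin M, lay between 6.57 and 11.2 there (median 8.71) and at 5.33, 5.53, 5.83, 5.29 and 5.60 in tongue (3.38 ± 0.66). Its 10 further probe sets differed by 0.11 to 1.44.

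Mast cell genes were lower in LD in 4 of 10 (40% called, beside 13.7% of all probe sets). *Cpa3*, a mast cell protease, lay between 6.02 and 9.62 in LD (median 6.88) and at 8.49, 9.02, 8.75, 8.46 and 8.50 in tongue (-1.39 ± 0.34), and *Mcpt4* differed by -1.36 ± 0.27 and *Kit* by -1.10 ± 0.16. BG LD5 was the highest LD array for all 3, and the groups overlapped through it. Of 21 macrophage genes and 15 fibroblast genes, 0 were called in either direction. Called shares of the taste cell and oral gland lists, 14.3% and 15.4%, lay near the 13.7% over all probe sets. Of 14 taste cell genes 1 was lower, *Itpr3*, the calcium channel of taste cells (-2.59 ± 0.18), and 1 higher. Of 26 genes of oral glands 2 were lower, *Wfdc12* (-6.04 ± 0.092) and *Wfdc2* (-2.77 ± 0.11), both protease inhibitor relatives, and 2 higher, among them the amylase *Amy1* (1.74 ± 0.16), an enzyme also made outside glands.

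Signals between nerve, fibre and epithelium differed in both directions. Of 17 genes of the neuromuscular junction, 1 was higher in LD and 3 were lower (23.5% called, beside 13.7% of all probe sets). *Rapsn*, which clusters acetylcholine receptors, was higher (1.08 ± 0.12, and no longer called at 0.983 without BG LD5 and FC LD2), *Musk*, their kinase, differed by 0.83 ± 0.16, and *Agrn* (-1.78 ± 0.17) and its receptor *Lrp4* (-1.49 ± 0.12), both also made by epithelia, were lower. *Erbb3*, a neuregulin receptor, lay between 6.47 and 7.44 in LD (median 6.93) and at 9.91, 9.73, 9.89, 10.1 and 10.1 in tongue (-3.04 ± 0.12). Of 28 myogenic regulators and satellite cell genes, 4 were higher and 3 lower (25% called, beside 13.7% of all probe sets). *Myod1*, the factor that commits cells to muscle, lay between 6.64 and 8.52 in LD (median 7.69) and at 5.13, 5.04, 5.17, 5.48 and 5.92 in tongue (2.24 ± 0.22). *Myf6*, active in mature fibres, was higher by 1.55 ± 0.11, and *Pax7*, of satellite cells, differed by 0.51 ± 0.11.

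Of 37 ligands and targets of Wnt, Hedgehog, FGF and BMP signalling, 2 were higher in LD and 11 lower (35.1% called, beside 13.7% of all probe sets). *Ereg*, an epithelial growth factor (-6.25 ± 0.15), *Wif1*, a Wnt inhibitor (-3.39 ± 0.54), and *Wnt4* (-2.60 ± 0.17) were lower, and *Fgf6*, a growth factor of muscle, was higher (1.38 ± 0.15). Of 17 clock genes 2 were higher, *Nfil3* (3.21 ± 0.26), a repressor of clock output, and *Arntl* (1.57 ± 0.23), the activator BMAL1. Their share, 11.8% called, lay near the 13.7% over all probe sets. The hour at which each tissue was taken is not given in the sources used here.

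*Actb*, *Pcx*, *Ppia* and *Gapdh* served as reference genes for qPCR in the study, whose reported qPCR results compared housing groups within LD. A difference between LD and tongue does not test that use. Of these genes, only *Actb* and *Pcx* were covered here, and both differed between the muscles. *Actb*, cytoplasmic actin, lay between 10.8 and 12.4 in LD (median 11.5) and at 12.8, 13, 12.9, 13 and 13 in tongue (-1.43 ± 0.16). *Pcx*, pyruvate carboxylase, lay between 8.43 and 9.33 in LD (median 8.94) and at 7.17, 6.27, 7.09, 7.55 and 7.22 in tongue (1.76 ± 0.13).

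The comparison was repeated in BF mice, with 5 other LD and 3 other tongue arrays. There 3059 probe sets (13.5%) were called, and 2545 were called in both, which is 81.9% of those called in ground mice and 83.2% of those called in BF mice. Of the 3107 called in ground mice, 3105 had the same sign in BF mice and 0 were called with the opposite sign. The differences correlated across all probe sets with r = 0.966, where probe sets are not independent replicates. *Krt13* differed by -10.24 in BF mice, *Zic1* by 5.39, *Isl1* by -4.60, *Hoxc8* by 4.25 and *Sln* by -5.15. *Actn3* differed by 4.04 in BF mice and 5.67 in ground mice, *Car3* by 4.05 and 5.36, and *Myh2* by 4.84 and 5.73, and BF TN1 and BF TN2 were among the BF tongue arrays. The difference between these values was not tested.

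**Figure D5:**
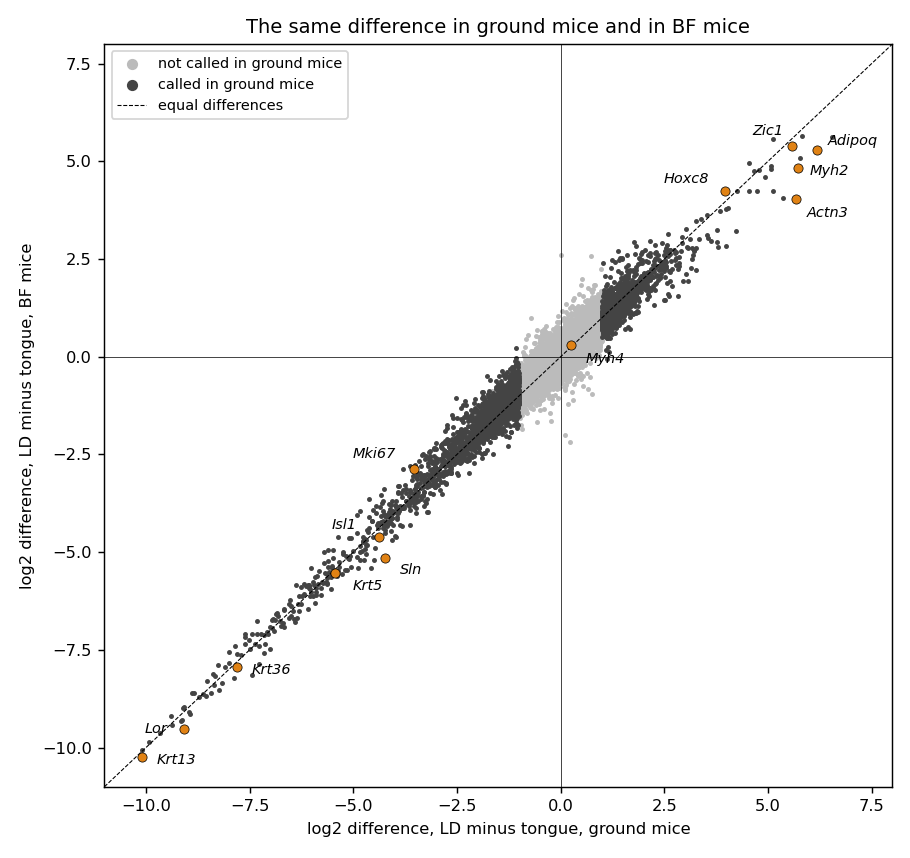
Log2 difference, LD minus tongue, of 22626 probe sets in ground mice (horizontal axis, 10 LD and 5 tongue arrays) and in BF mice (vertical axis, 5 LD and 3 tongue arrays); the dashed line marks equal differences and orange points are named genes. Points lie along the line (r = 0.966), with Krt13 at -10.09 and -10.24 and Zic1 at 5.57 and 5.39.

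Within ground mice the gap between the muscles was also compared between housings. The difference in gap, BG minus FC, passed an adjusted p of 0.05 in 34 probe sets (0.15%), and 2079 passed an unadjusted p of 0.05. Without FC TN1, 1 of the 2 FC tongue arrays, 0 passed, without BG TN3, 56 passed, and without both BG TN1 and BG TN3, 95 passed. Leaving out BG LD2, BG LD3, BG LD4, FC LD4, FC LD5, BG TN1 or FC TN2 alone left 14 to 22. *Krtap4-16*, a keratin-associated protein of hair and papillae, lay between 4.52 and 5.03 in LD (median 4.75) and at 11.4, 11.6, 11.5, 12.9 and 12.7 in tongue. Its gap was 1.49 less negative in BG than in FC mice (adjusted p = 0.00232). *Krtap3-1* had a change of 1.10 of the same kind (adjusted p = 0.0185) and *Ppp1r3c* one of -1.39 (adjusted p = 0.0457). For both hair proteins the FC tongue arrays were the highest, and for *Ppp1r3c* the lowest.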

How the data were processed

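RNA of *longissimus dorsi* and tongue was hybridised to Affymetrix GeneChip arrays for the mouse. The authors summarised the scans by RMA in Partek Genomics Suite, and the deposited values are log2 levels of 22626 probe sets on 23 arrays. Of these probe sets 20380 name 1 gene, 691 several and 1555 none. No detection call, scan date or batch was used here.

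The 15 ground arrays were fitted with limma 3.58.1 in R 4.3.3 with muscle and housing as terms, leaving 12 residual degrees of freedom. Benjamini-Hochberg adjustment ran over the whole table, and calls needed an adjusted p below 0.05 with more than 2-fold. Tests are two-sided, ± is the SE of a difference, and p-values measure the spread between these arrays, whose number limits the precision. A gene is given by its brightest probe set, by the mean over the 15 ground arrays, 10 of them LD. Named genes were *Myh4*, *Myh2*, *Krt5* and *Hoxa5*, the 10 largest called changes of each direction that name 1 gene and do not overlap between the muscles, members of 41 gene lists (all of the main lists, otherwise those with the smallest adjusted p and the first 3 as written) and up to 5 genes by the interaction of muscle and housing. The comparison, lists and genes were chosen with earlier results of these data known. The fit was tested on simulated data. Promoters and their coordinates came from RefSeq. Alternatives covered the samples, covariates, variance, normalization, filters, thresholds and arrays left out.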

Additional observations from a re-analysis of the deposited data

Results flagged for a closer look

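Within LD or tongue of ground mice, 1 array lay far from the rest of its group for 25 of 306 combinations of gene and muscle, 18 in LD and 7 in tongue (Dixon's criterion, the gap to the nearest array as a share of the range of the group). The criterion marks about 1 in 20 groups of independent values by chance. Genes on the same arrays are not independent, so the 25 cannot be read against that share.

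FC LD2 was low for 8 genes, most of them of slow fibres. It held *Myl2* at 10.6, *Tnni1* at 7.94, *Tnnt1* at 8.65, *Tnnc1* at 9.21, *Tpm3* at 9.39, *Myoz2* at 10.1, *Csrp3* at 9.86 and *Tnni2* at 14.2. BG LD5 was high for *Myh3* (8.89) and for the mast cell genes *Cpa3* (9.62), *Mcpt4* (8.64) and *Kit* (5.63), and low for *Pvalb* (13.9) and *Wfdc12* (5.68). FC LD5 was low for *Mylpf* (14) and high for *Sgca* (11.2), FC LD3 was high for *En1* (4.97) and BG LD2 for *Dlx5* (4.99).

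Among tongue arrays, BG TN1 was high for *Irx5* (5.14), *Wfdc2* (9.04) and *Scd1* (10.3). BG TN2 was low for *Mylk2* (6.94) and high for *Mcpt4* (8.45), FC TN1 was low for *Cdh1* (10.2) and FC TN2 was high for *Cox6a2* (12.9).

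The difference between LD and tongue itself differed between BG and FC mice for 3 named genes in limma's interaction test, by 1.49 for *Krtap4-16* (adjusted p = 0.00232), 1.10 for *Krtap3-1* (adjusted p = 0.0185) and -1.39 for *Ppp1r3c* (adjusted p = 0.0457), each BG minus FC. Some genes were named for their small p in this same test, so passing it here adds no support. Without FC TN1, 1 of the 2 FC tongue arrays, 0 probe sets passed. No cause of these values was tested.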

How the results depend on the processing

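The 3107 calls became 1942 with 1 probe set per gene, 14099 with the adjusted p alone and 1756 when limma tested for a change over 2-fold (treat). Those higher in LD numbered 751, 9060 and 512 under these settings, against 1244. Those lower, 1863, numbered 1191 with 1 probe set per gene, 5039 with the adjusted p alone and 1091 among the brighter probe sets, where 1089 were higher. Brightness is the mean over 10 LD and 5 tongue arrays, so this cut favours probe sets high in LD. The balance of higher and lower calls there is partly set by the cut. With 1 array left out in turn, 3030 to 3216 were called, 1176 to 1297 higher and 1830 to 1933 lower. The gene lists held 292 called genes, 193 among the brighter probe sets and 286 to 299 with 1 array left out. In BF mice 2847 to 3221 were called with 1 array left out. The 34 probe sets whose difference depended on housing became 21 without moderation, 68 in a fit of all 23 arrays, 95 without BG TN1 and BG TN3 (chosen after seeing the data) and 0 to 56 with 1 array left out. The median difference, 0.16, was 0.255 after median centring of each array. Of the calls 40% were higher in LD, 47.9% after median centring and 50% among the brighter probe sets. The other fits at both thresholds, and those with arrays left out, gave 37.1% (BG arrays alone) to 44.8% (FC arrays alone). Other thresholds moved this share further: 64.3% were higher at the adjusted p alone, and 512 of 1756 with treat. Taking the replicate number as a block gave 3107 calls as a random and 3205 as a fixed block. The numbers were not taken as pairs, because it is not stated which arrays came from the same mouse. Same-numbered LD and tongue arrays correlated between -0.13 and 0.17 after the mean of each group was removed. With 3 BG and 2 FC tongue arrays, this could neither show nor exclude pairing. Of 134 named genes that were called, 124 stayed called under each alternative fit that was run on them and with each array left out, and *Csrp3*, *Tnnt2*, *Meis1*, *Chad*, *Cpa3*, *Kit*, *Rapsn*, *Hoxb2*, *Foxf2* and *Dmd* did not under at least 1. The filter on dim probe sets left out some of these genes, and treat and the adjusted p alone were run on counts only. *Krt8*, not called, had -0.0738 in FC arrays alone. The causes were not tested. Dim probe sets limit what can be measured at the low end.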
